A study of Mus musculus with 8 samples.

Results

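The 3 genes of the Nur77 family, Nr4a1 (which encodes Nur77 itself), Nr4a2 (Nurr1) and Nr4a3 (Nor1), were taken from the GENCODE M21 annotation of the mouse genome, which holds 21951 protein-coding genes. Every peak listed from 20 kb upstream of each gene to 5 kb past its end was collected from 8 chromatin immunoprecipitation (ChIP-seq) libraries. The 3 windows held 29 peaks, 11 at Nr4a1, 7 at Nr4a2 and 11 at Nr4a3, and peaks of separate libraries that shared at least 1 bp were joined into 21 sites.

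The cells were E14Tg2a mouse embryonic stem cells at passages 37 to 40, a single pluripotent line. ESCs grew with LIF, a cytokine that keeps them pluripotent, and NCs, the neuronal cells, were monolayers without it given 1 µM retinoic acid (RA) for 48 h. Antibodies to FGFR1, RXR and Nur77 were used in both states and an antibody to the histone variant H3.3 in NCs, each with 3 µg of antibody on 112 µg of chromatin from 5 pooled plates. The FGFR1 antibody in NCs gave 2 libraries, called replicates 1 and 2, and each of the other 6 groups had 1, so differences between ESCs and NCs had no replicate check and no test was run. Nothing in the sources used here says whether the 2 FGFR1 libraries came from separate cultures. Peak lists carry no expression, so the labelled cell types could not be checked against their markers.

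Nr4a receptors are orphan nuclear receptors whose activity is set largely by how much protein is made, since no classical hormone ligand is needed. They are immediate early genes, switched on within minutes by growth factor, calcium or cyclic AMP signals, often through cyclic AMP response elements (CREs) near their starts. Nur77 binds DNA alone at the NBRE motif or with RXR, the shared partner of many nuclear receptors, and nFGFR1, the nuclear form of an FGF receptor, has been described as their partner on chromatin. Nr4a2 is required for midbrain dopamine neurons.

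The stretches just upstream of 1 start of each gene are shown because peaks lay on or beside them. They are 250 bases of GRCm38 (mm10) on the gene's strand, with capitals marking the CRE core TGACG on either strand. The Nr4a1 stretch is chr15:101266596-101266845 (+), before the shared start of Nr4a1-201 and Nr4a1-203. The Nr4a2 stretch is chr2:57124004-57124253 (-), before Nr4a2-203, and the Nr4a3 stretch is chr4:48044903-48045152 (+), before Nr4a3-201.
Nr4a1 upstream of start: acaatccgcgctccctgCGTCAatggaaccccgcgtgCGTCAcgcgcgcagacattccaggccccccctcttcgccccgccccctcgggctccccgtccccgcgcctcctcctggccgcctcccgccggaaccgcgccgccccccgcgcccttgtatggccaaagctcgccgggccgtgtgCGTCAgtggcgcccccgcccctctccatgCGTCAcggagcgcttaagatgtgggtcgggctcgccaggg
Nr4a2 upstream of start: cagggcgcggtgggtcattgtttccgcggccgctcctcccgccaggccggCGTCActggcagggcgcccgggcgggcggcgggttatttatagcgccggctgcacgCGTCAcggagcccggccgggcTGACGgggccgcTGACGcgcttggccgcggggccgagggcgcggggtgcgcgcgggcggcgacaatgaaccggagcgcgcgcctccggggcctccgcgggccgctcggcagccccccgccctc
Nr4a3 upstream of start: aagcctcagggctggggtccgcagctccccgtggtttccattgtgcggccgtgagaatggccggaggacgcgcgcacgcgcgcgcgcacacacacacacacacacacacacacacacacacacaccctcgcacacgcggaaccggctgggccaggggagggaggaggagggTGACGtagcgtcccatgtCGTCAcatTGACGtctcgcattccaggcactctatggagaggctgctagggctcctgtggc
The Nr4a1 stretch held 4 CRE cores, starting at bases 18, 38, 182 and 211 from its 5′ end. The Nr4a2 stretch held 4, at bases 51, 107, 128 and 140, and the Nr4a3 stretch held 3, at bases 172, 190 and 198. Among 93526 such stretches before the starts of all protein-coding genes, 19.4% held a CRE core and 4.55% held more than 1. The NBRE (AAAGGTCA), the nuclear receptor core (AGGTCA), the DR5 retinoic acid element and the CArG box had no match in the 3 stretches, against 1.12%, 13.0%, 0.0674% and 1.22% of all of them. The 3 genes have 11 distinct starts, and the stretches before 6 of them held more than 1 CRE core, 1 held a single core and 4 held none (Nr4a2-202, Nr4a2-204, Nr4a3-202 and Nr4a3-203). The only full CRE (TGACGTCA) stood at -47 bp from the start of Nr4a2-201. Some of these stretches overlap, so they are not independent. The printed stretches of Nr4a1, Nr4a2 and Nr4a3 were 74.4%, 80.0% and 65.2% G and C. The shares of all stretches were not matched for GC content, and no difference was tested. Peaks also lay at the starts of Nr4a1-202 and Nr4a2-201, whose stretches are not printed and held 2 cores each. Both strands were searched, and an NBRE contains a nuclear receptor core.

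The first comparison was the number of listed peaks at the 3 genes by factor and state. FGFR1 had 0 peaks in ESCs, and in NCs it had 10 in replicate 1 and 5 in replicate 2 (7.5 ± 3.54, SD, n = 2). RXR had 5 peaks in ESCs and 1 in NCs. Nur77 had 3 peaks in ESCs and 4 in NCs, and H3.3 had 1 peak in NCs. Both FGFR1 libraries from NCs thus listed more peaks at these genes than the FGFR1 library from ESCs, RXR listed fewer in NCs, and Nur77 differed by 1 peak. Between the full lists FGFR1 also went up, from 11378 peaks to 46137 and 14082, RXR went down from 30586 to 15224, and Nur77 went from 22651 to 25995. When each list was held to its 10634 strongest peaks, the change at the 3 genes was 2.5 for FGFR1, -1 for RXR and -2 for Nur77, so the direction for Nur77 turned.

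Per 100 kb of window, FGFR1 peaks at the 3 genes numbered 0 in ESCs, 6.49 in replicate 1 and 3.25 in replicate 2, against 0.737, 3.16 and 1.43 over the windows of all protein-coding genes. RXR had 3.25 against 2.1 in ESCs and 0.649 against 0.949 in NCs. Nur77 had 1.95 against 1.39 in ESCs and 2.6 against 1.54 in NCs, and H3.3 had 0.649 against 0.657. The family's windows were denser in peaks than those of all genes in 5 of the 8 libraries and sparser in the other 3. In these windows 1 peak came to 0.649 per 100 kb. For H3.3, RXR in NCs and Nur77 in ESCs the difference was less than 1 peak, and no difference was tested.

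**Figure D1:**
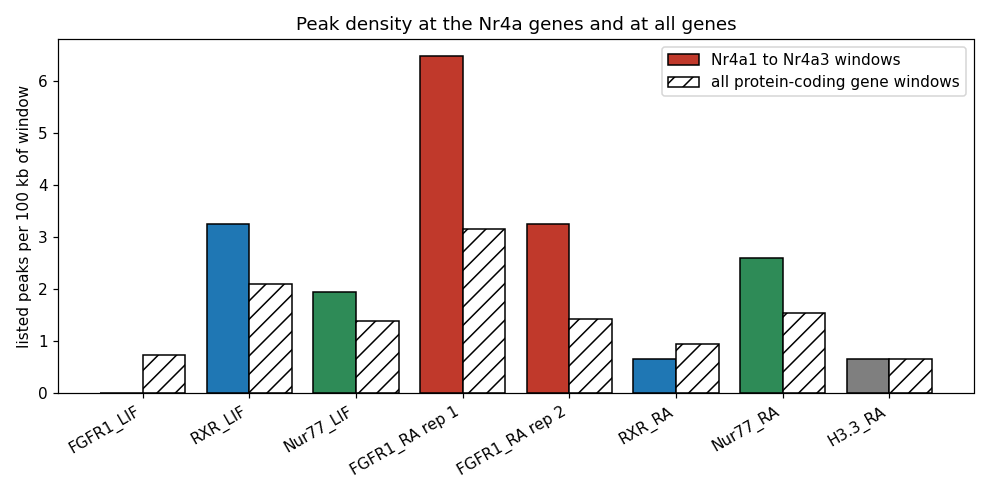
Listed peaks per 100 kb of window (vertical axis) in each library, for the windows of Nr4a1 to Nr4a3 (filled bars) and of all protein-coding genes (hatched bars). FGFR1_LIF stands at 0 against 0.737 and FGFR1_RA replicate 1 is highest at 6.49 against 3.16.

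In ESCs, FGFR1 had a peak in the window of 0 of the 3 genes, against 37.4% of all protein-coding genes. RXR had one at 3 of 3 (64.9%) and Nur77 at 2 of 3 (53.5%). In NCs, FGFR1 had one at 3 of 3 genes in replicate 1 (73.8%) and 3 of 3 in replicate 2 (60.2%). RXR had one at 1 of 3 (44.7%), Nur77 at 2 of 3 (56.3%) and H3.3 at 1 of 3 (35.0%). With 3 genes these counts are too small to be set apart from the shares of all genes. The nearest FGFR1 peak in ESCs lay 22.2 kb past the end of Nr4a1, 79.6 kb past the end of Nr4a3 and 114 kb upstream of Nr4a2.

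Proximal promoters, the 1000 bp either side of any transcript start, held a peak in 12 of 24 pairs of gene and library. In ESCs the count of genes was 0 of 3 for FGFR1 (17.0% of all genes), 2 of 3 for RXR (42.5%) and 2 of 3 for Nur77 (25.5%). In NCs it was 3 of 3 for FGFR1 replicate 1 (50.7%), 2 of 3 for replicate 2 (49.6%), 1 of 3 for RXR (23.3%), 1 of 3 for Nur77 (25.8%) and 1 of 3 for H3.3 (15.5%). Nr4a1 had promoter peaks in 3 libraries, Nr4a2 in 4 and Nr4a3 in 5, and 163, 285 and 40 protein-coding genes had them in exactly the same libraries. The order turned with the annotation, since on the starts of basic transcripts alone Nr4a1 kept 3 and Nr4a2 kept 4 libraries but Nr4a3 kept 2 (Nur77 in ESCs and H3.3 in NCs), and the pairs came to 9 of 24. The shares of all genes above are for all transcripts and do not apply to that count.

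**Figure D2:**
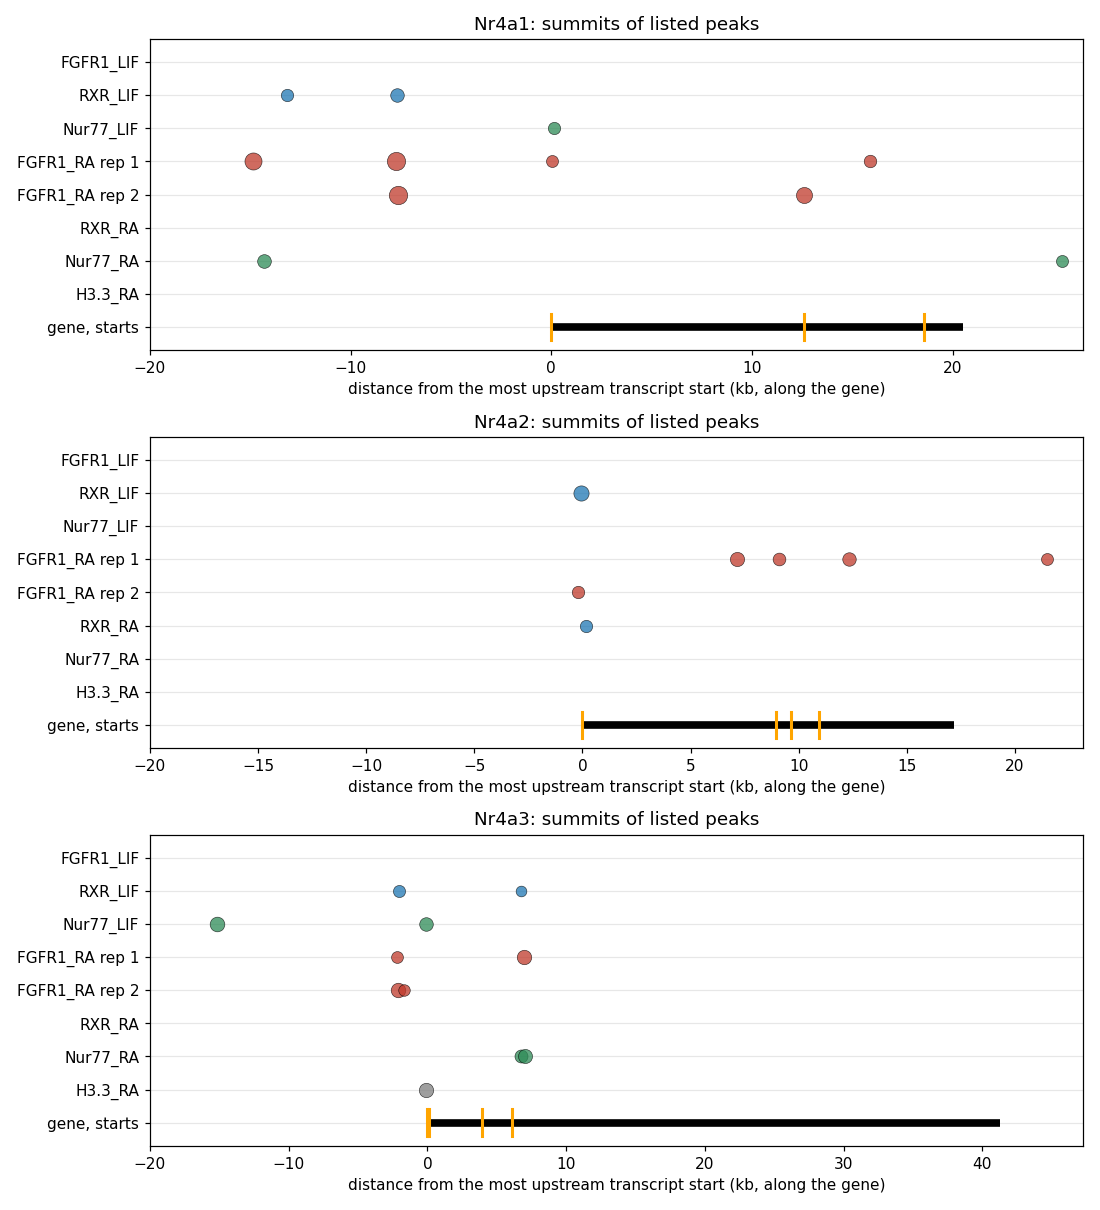
Summits of the 29 listed peaks along Nr4a1, Nr4a2 and Nr4a3 (horizontal axis, kb from the most upstream transcript start in the direction of the gene), 1 row per library, with point area proportional to the fold value (4.09 to 12.1). The black bar is the gene and orange ticks are transcript starts, and the row of FGFR1_LIF is empty at all 3 genes.

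Depth was read from the deposited values, which give the fragments over each summit. In the 8 libraries the genome-wide background ranged from 1.27 fragments per kb (H3.3) to 7.09 (RXR in ESCs), with 2.71 for FGFR1 in ESCs, 4.17 and 6.78 for FGFR1 replicates 1 and 2, and 1.87 for RXR in NCs. At that background a summit needed from 4 to 8 fragments to be listed. The genome-wide background was taken as the lowest solved in a list, and the fragment length as the width of its narrowest peak. Both are inferred, and no source used here gives a fragment length. The peaks at the family rested on 6 to 41 fragments, with exact 95% Poisson intervals that cover counting error only, as reads copied by PCR are not independent molecules. A gene without a listed peak may still have had signal under the limit.

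Depth and fragment length, both inferred from the lists, differed between the states. If each peak's fragments and local background were scaled to the other library, all 10 peaks of FGFR1 replicate 1 and 3 of 5 of replicate 2 would have passed the limit in the ESC library, but 4 and 1 would have passed if its genome-wide background was used instead. For RXR, 1 of 5 ESC peaks would have passed in NCs under either scaling. The scaling assumes equal enrichment. From replicate 1 to the ESC library it multiplied fragments and local background alike by 1.03. The 10 of 10 was thus nearly fixed in advance and says nothing on binding in ESCs. Between the FGFR1 replicates the scaling passed 10 of 10 replicate 1 peaks in replicate 2, where 2 were listed. In that direction it multiplied fragments and local background alike by 3.46. This 10 of 10 was thus also fixed in advance and says nothing on why the other peaks were not listed. The scaling passed 3 of 5 replicate 2 peaks in replicate 1 (0 with the genome-wide background), where 2 were listed. FGFR1 in ESCs and replicate 1 needed the same 5 fragments at the genome-wide background, and the background per fragment length in ESCs was 1.03 times that of replicate 1. Per kb, the background was 2.71 in ESCs and 4.17 in replicate 1, with inferred fragment lengths of 114 and 72 bp. For RXR the ratio per fragment length was 0.382 in NCs to ESCs. Depth and binding cannot be told apart for either factor.

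**Figure D3:**
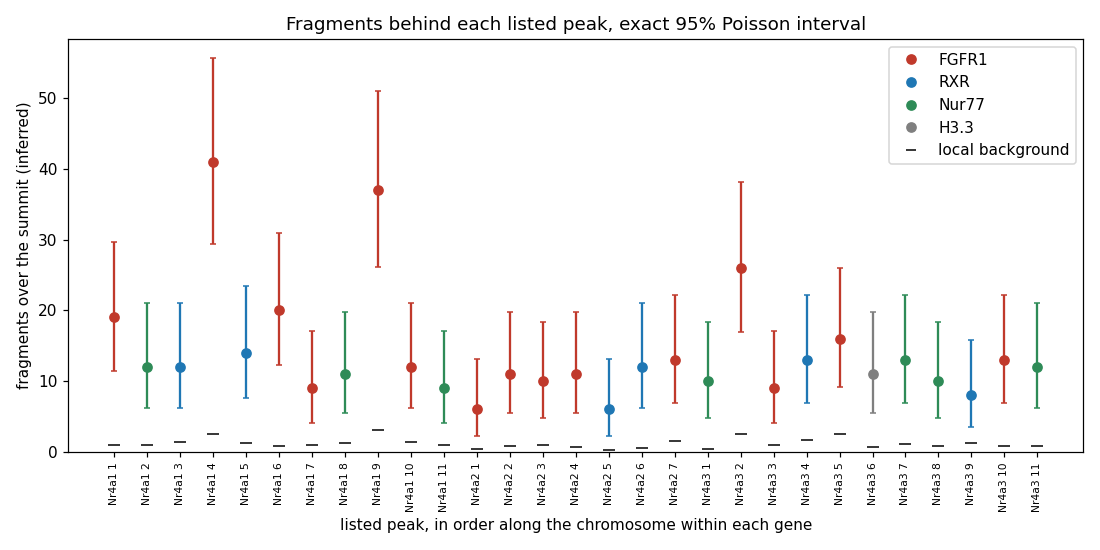
Fragments over the summit of each of the 29 listed peaks (points, coloured by antibody) with exact 95% Poisson intervals, and the local background (dashes), numbered along the chromosome within each gene. The values run from 6 to 41 and the highest are both from FGFR1_RA replicate 2 at Nr4a1.

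Nr4a1 (chr15:101254269-101274795, + strand) encodes Nur77 and had peaks in 5 libraries. Its strongest site lay upstream, outside the promoter, and was listed in both FGFR1 libraries from NCs and in the RXR library from ESCs. The FGFR1 summits stood at -7739 bp (replicate 1) and -7662 bp (replicate 2) from the start of Nr4a1-202, and the RXR summit at -7668 bp. The deposited fold, in which 1 is added to fragments and to background, was 11.9 in replicate 1 (20 fragments, interval 12.2 to 30.9). It was 12.1 in replicate 2 (41 fragments, 29.4 to 55.6) and 6.58 for RXR (14 fragments, 7.65 to 23.5). The replicate 1 peak ranked 3326 of 46137 in its list and the replicate 2 peak 2926 of 14082. These were the highest folds at the family, and neither RXR in NCs nor FGFR1 in ESCs listed the site. The stretch common to the 3 peaks, chr15:101246491-101246620 (+), is shown because it is 1 of only 2 sites shared by 3 libraries, with the CRE core in capitals.
Nr4a1 upstream site: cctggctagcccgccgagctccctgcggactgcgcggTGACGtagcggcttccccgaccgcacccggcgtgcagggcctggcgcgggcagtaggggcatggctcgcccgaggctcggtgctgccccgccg
It was 77.7% G and C and held 1 CRE core, at base 38.

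Around the Nr4a1 starts the libraries did not share 1 pattern. FGFR1 replicate 1 had a peak of fold 5.15 over the start of Nr4a1-202, with its summit at 57 bp in the 5′ untranslated exon, and Nur77 in ESCs had one of fold 5.41 with its summit at 120 bp in the intron. These peaks overlapped at chr15:101254333-101254358. At the start of Nr4a1-201 and Nr4a1-203, where the peak ran from the end of the printed stretch over its cores at bases 182 and 211 into the gene, only FGFR1 replicate 2 was listed, with a fold of 9.23 from 37 fragments (26.1 to 51.0) and its summit at 43 bp. The FGFR1 replicates thus listed separate starts of this gene.

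The other Nr4a1 peaks were each listed in 1 library. Upstream, FGFR1 replicate 1 had a peak of fold 10.4 at -14852 bp, Nur77 in NCs had one of fold 6.69 at -14334 bp and RXR in ESCs had one of fold 5.47 at -13158 bp. The RXR peak was the only 1 of the 29 with a nuclear receptor core within 50 bp of its summit. No nuclear receptor core in the windows of the 3 genes lay inside a peak, this core included. FGFR1 replicate 1 also had a peak of fold 5.6 in a coding exon. Nur77 in NCs had a peak of fold 5.19 whose near edge was 4.89 kb past the gene's end, so that the protein encoded by this gene was listed in NCs on both sides of it but not at its starts. That downstream peak, chr15:101279686-101279777 (+), is shown because it was the only 1 of the 29 with a full CRE (TGACGTCA, which holds a CRE core on each strand), in capitals.
Nr4a1 downstream site: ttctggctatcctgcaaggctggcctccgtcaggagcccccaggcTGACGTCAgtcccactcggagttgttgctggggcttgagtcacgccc
It rested on 9 fragments (4.12 to 17.1) and ranked 24176 of 25995, near the bottom of its list.

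Nr4a2 (chr2:57106830-57124003, - strand), which encodes Nurr1, had peaks of FGFR1 and RXR only, with 0 from Nur77 and 0 from H3.3. Its window also took in part of the long noncoding RNA gene BB557941, where no peak lay. At its most upstream start the RXR library from ESCs had a peak of fold 8.27 (12 fragments, 6.2 to 21) with its summit at -81 bp, within the printed stretch. RXR in NCs had one of fold 5.47 (6 fragments, 2.2 to 13.1) at 167 bp, and FGFR1 replicate 2 had one of fold 5.52 (13 fragments, 6.92 to 22.2) at -227 bp. The 3 peaks stood side by side and no pair shared a base. The RXR peak in ESCs held 2 CRE cores in its summit window and the FGFR1 replicate 2 peak held 1.

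FGFR1 replicate 1 had its 4 Nr4a2 peaks elsewhere. One of fold 5.79 had its summit at 140 bp from the start of Nr4a2-201 in the 5′ untranslated exon. One of fold 7.23 lay in an intron, one of fold 6.49 in a coding exon and one of fold 5.14 past the end of the gene. None of the 4 was listed in replicate 2, so at Nr4a2 the FGFR1 replicates shared no peak. The nearest Nur77 peak lay 77.9 kb upstream in both ESCs and NCs.

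Nr4a3 (chr4:48045153-48086447, + strand), which encodes Nor1, had peaks in 6 libraries. The only site there shared by 3 libraries lay just upstream of the promoter. FGFR1 replicate 2 had a fold of 7.54 (26 fragments, 17.0 to 38.1) with its summit at -2151 bp from the start of Nr4a3-201, FGFR1 replicate 1 had 5.01 (9 fragments, 4.12 to 17.1) at -2168 bp and RXR in ESCs had 5.26 (13 fragments, 6.92 to 22.2) at -2079 bp. As at the Nr4a1 upstream site, the 3 libraries were both FGFR1 libraries from NCs and RXR from ESCs. The stretch spanned by the RXR and replicate 1 peaks, chr4:48042944-48043111 (+), is shown for that reason, with the CTCF core AGGGGGC (here on the other strand) in capitals.
Nr4a3 upstream site: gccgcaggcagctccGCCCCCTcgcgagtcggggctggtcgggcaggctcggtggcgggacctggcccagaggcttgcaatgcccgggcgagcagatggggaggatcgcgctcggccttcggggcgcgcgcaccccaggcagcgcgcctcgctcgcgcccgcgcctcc
All 3 summit windows held a match to this core, and they were the only 3 of the 29 that did. Among all summit windows of a library, 1.63% to 4.8% held one. The match in capitals lay in the windows of both FGFR1 peaks, so it was counted for each. The match in the RXR window was another, which lay wholly past the end of the printed stretch. The RXR peak ended there too, so this match was in its summit window but outside the peak. FGFR1 replicate 2 had a second peak nearby, of fold 4.77 at -1659 bp, and Nur77 in ESCs had one of fold 7.67 at -15174 bp.

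At the Nr4a3 start itself H3.3 in NCs and Nur77 in ESCs overlapped. H3.3 had a fold of 7.37 (11 fragments, 5.49 to 19.7) at -125 bp, and Nur77 had 6.6 (13 fragments, 6.92 to 22.2) at -76 bp. No FGFR1 or RXR peak lay there, and the shared stretch took in all 3 CRE cores printed above. The shared stretch, chr4:48045000-48045110 (+), is shown because it begins in a run of alternating purine and pyrimidine, in capitals, which takes up its first 28 bases.
Nr4a3 start, shared stretch: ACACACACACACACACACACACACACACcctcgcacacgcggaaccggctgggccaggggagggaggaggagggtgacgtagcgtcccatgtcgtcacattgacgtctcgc
Such runs of at least 20 bp stood in peaks of every library, from 1.26% (FGFR1 replicate 2) to 51.7% (FGFR1 in ESCs), and the part of the run in these 2 peaks was not tested. The same 2 peaks were the only ones at the family with a run.

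Inside Nr4a3 the first coding exon carried 4 peaks in 2 sites. Nur77 in NCs had a fold of 6.03 and RXR in ESCs 4.09 at the first, where the RXR peak was near the foot of its list, at rank 30531 of 30586. At the second, FGFR1 replicate 1 had a fold of 7.45 (13 fragments, 6.92 to 22.2) and Nur77 in NCs 7.09 (12 fragments, 6.2 to 21), with summits at 889 and 922 bp from the start of the noncoding transcript Nr4a3-202. This was the only site at the family where FGFR1 and Nur77 were both listed in NCs, and FGFR1 replicate 2 did not list it. All 4 counted as promoter peaks only through that transcript. The span of both peaks, chr4:48052088-48052207 (+), is shown with the bases common to them in capitals, and 114 of its 120 bases are coding.
Nr4a3 coding exon site: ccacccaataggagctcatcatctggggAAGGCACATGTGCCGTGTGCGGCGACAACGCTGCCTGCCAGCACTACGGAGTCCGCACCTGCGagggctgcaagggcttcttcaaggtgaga

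Over the family, 6 of 21 sites held peaks of more than 1 library and 15 held a peak of 1 library. The same shares were not computed over all genes, so these counts show nothing particular to the family. Of the 10 FGFR1 replicate 1 peaks, 2 overlapped a replicate 2 peak, against 20.6% of its whole list, and of the 5 replicate 2 peaks 2 overlapped replicate 1, against 58.4%. The shared peaks were those at the upstream sites of Nr4a1 and Nr4a3. The summits were upstream of the gene in 15 peaks, in coding exons in 6, in 5′ untranslated exons in 4, in introns in 2 and past the end in 2. Within their own lists the peaks were mostly weak, with 10 of 29 above the median of their list by −log10 p and a median percentile of 29.5.

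A CRE core lay within 50 bp of the summit in 9 of 29 peaks, or 31.0%, against 6.87% to 12.1% of all peaks of a library. The 29 peaks form 21 sites and are not independent, as the H3.3 and Nur77 windows at the Nr4a3 start share a core. The shares were not matched for GC content or distance from a start, and no difference was tested. The NBRE, the motif that Nur77 binds alone, was found in 0 of 29 summit windows, against 0.0564% to 0.163% of all peaks. The windows of the genes held 2, 1 and 6 NBREs at Nr4a1, Nr4a2 and Nr4a3, and none of these lay inside a peak. A match is only a word in the sequence, and its absence says nothing about the factor.

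The other lists gave a setting for the family. Among 20 other immediate early genes, 5 had a promoter peak of FGFR1 in ESCs, 16 in replicate 1 and 15 in replicate 2, which is 25.0%, 80.0% and 75%. Of all genes, 17.0%, 50.7% and 49.6% had one in these libraries. The members had 0, 3 and 2 of 3. Among 46 other nuclear receptor genes the counts were 3, 22 and 19, or 6.52%, 47.8% and 41.3%, each below the share of all genes. RXR lay at 39.1% of these receptor genes and 45.0% of the immediate early genes in ESCs, where all genes stood at 42.5%, and at 28.3% of the receptor genes and 4 of 20 immediate early genes in NCs, where all genes stood at 23.3%. Nur77 lay at 19.6% and 15% in ESCs, against 25.5% of all genes, and at 32.6% and 15% in NCs, against 25.8%. These lists are small, and no difference from all genes was tested.

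Of the 46 receptor genes, 2 had promoter peaks in at least 7 libraries, Nr3c2 (the mineralocorticoid receptor) and Rxrg (an RXR), and 0 of the 20 immediate early genes did, against 8.07% of all genes. Among 9 genes long known as Nr4a targets, such as Th and Slc6a3 of dopamine neurons, Nur77 had a promoter peak at 1 in ESCs and 1 in NCs (11.1% in each, against 25.5% and 25.8% of all genes), and 5 had none in any library, as did 34.5% of all genes. These lists were chosen with earlier results of these data known and support no direction.

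**Figure D4:**
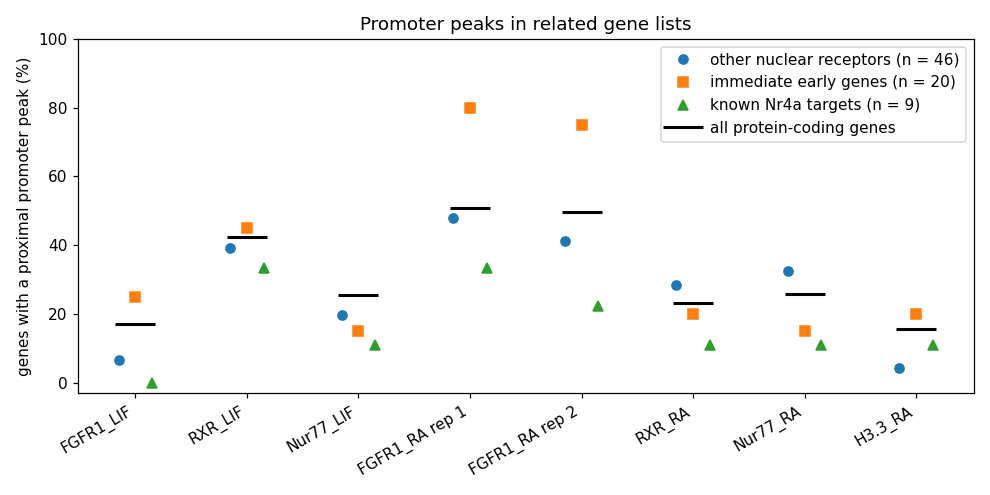
Share of genes with a proximal promoter peak (vertical axis, percent) in each library for 46 other nuclear receptor genes, 20 immediate early genes and 9 known Nr4a targets (symbols), and for all protein-coding genes (dashes). The immediate early genes stand at 80.0% and 75% in the FGFR1_RA libraries, where all genes stand at 50.7% and 49.6%.

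Likeness was measured as the distance, over the 8 libraries, between the percentiles of the strongest promoter peak in its list (from 0, no peak, to the top of the list). Nearest to Nr4a1 were Stx5a (4.9), Rp2 (5.92) and Dnah1 (5.92). Nearest to Nr4a2 were Ptprb (12.6), Rps6ka4 (12.6) and Plxna1 (12.7), and nearest to Nr4a3 were Lrch1 (34.8), Lepr (36.4) and Pde3b (37.9). The values of Nr4a3 in RXR_LIF, FGFR1_RA replicate 1 and Nur77_RA rest on the start of Nr4a3-202 alone.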

How the data were processed

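Chromatin from E14Tg2a cells was sequenced on an Illumina instrument. Per the labels and the study's methods, the authors aligned reads to mm10 with Bowtie 1.0, keeping unique hits, then ran MACS2 (p limit 1e-05) on every library by itself. The commands name no control library. The deposited fold is a ratio of pileup to local background after 1 is added to each, so it is below the plain ratio. The −log10 p and −log10 q, also deposited, are those of the summit. The deposited score is derived from them, and the deposited summit offset gives the summit's place.

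Whole fragments and background were solved from fold and −log10 p (tolerance 0.002 in −log10 p; tested on simulated data) with Python 3.11.15, numpy 2.4.6, pandas 2.3.3, scipy 1.17.1 and pysam 0.24.0. Figures used matplotlib 3.10.9. Coordinates count from 1. Windows needed 1 bp of overlap and promoters 20 bp. The RefSeq promoter table held 3 of 3 members with the same bases as the genome.

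Members and lists were chosen with earlier results of these data known. Named genes were the members, list genes with promoter peaks in at least 7 libraries (at most 4 per list) and the 3 nearest genes in pattern to each member. Alternatives changed the limits on −log10 p, −log10 q and fold, list size, overlap, window, runs, transcripts and replicate.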

Additional observations from a re-analysis of the deposited data

Results flagged for a closer look

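At the 3 genes the change from ESCs to NCs in listed peaks went opposite ways between factors. FGFR1 stood 7.5 peaks higher in NCs as the mean of 2 libraries, both of them above the ESC library, Nur77 stood 1 peak higher, and RXR differed by -4. The difference between factors was not tested, since all groups but FGFR1 in NCs had 1 library. Over the full lists, FGFR1 also rose, with 11378 peaks in ESCs against 46137 and 14082 in NCs. Nur77 rose as well, with 22651 in ESCs against 25995 in NCs. RXR fell, with 30586 in ESCs against 15224 in NCs. The directions at the 3 genes were thus those of the full lists, and a difference from them was not tested. With equal list sizes the changes at the 3 genes were 2.5 for FGFR1, -2 for Nur77, which turned its direction, and -1 for RXR. At a −log10 p of at least 10 Nur77 stood at 0.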

How the results depend on the processing

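With peaks of −log10 p of at least 10 only, the change was 3.5 for FGFR1, -2 for RXR and 0 for Nur77, the total was 14 peaks and promoter pairs were 6 of 24. With the 10634 strongest peaks of every list the change was 2.5 for FGFR1, -1 for RXR and -2 for Nur77, which reversed it, with 9 peaks and 4 pairs. From 5 kb upstream to the gene's end, RXR changed by -2 and Nur77 by 0, and without peaks on alternating runs Nur77 changed by 2. Leaving out 1 FGFR1 replicate gave from 5 to 10. Limits of 2 on −log10 q and 5 on fold and summits inside the window left the 3 changes and both totals within 1.5 times their values and in the same direction. Basic transcripts, which bear on the promoter pairs only, gave 9 of 24. Shares of all genes were not computed under these settings, so the pairs have none to be read against. The cause of these shifts was not tested.

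The scaling to another library's depth was chosen after seeing the data. The version with the genome-wide background was computed first, and the version with the scaled local background was put before it after the first had given 4 of 10 and 1 of 5 peaks, so both are given. No paired analysis was possible because no result came from a test and only 1 group had 2 libraries. A summit needed 4 to 8 fragments to be listed, depending on the library, and signal under that limit is not seen.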
